A study of Danio rerio with 4 samples.

Results

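In zebrafish ovary, 128 of 11774 measured gene loci were at least 2-fold higher than control in the library exposed to dibutyl phthalate (DBP) and in the library exposed to its branched isomer diisobutyl phthalate (DiBP), yet within 2-fold of control in the library exposed to both compounds. They were chosen by exactly these differences, on the log2(FPKM + 1) scale, among Ensembl gene loci whose 4 values averaged 1 FPKM or more. FPKM scales fragments by transcript length and library size, so levels can be set side by side between genes. The set makes up 1.09% of the measured loci. Because the measured values chose the members, every difference from control given for them is a description and none was tested.

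Ovarian mRNA was sequenced from adult wild-type females (AB strain, age 5 months) that had been exposed for 30 days to DBP, to DiBP or to the 2 compounds together, beside a library labelled control. There was 1 library per group, so each value compares libraries and has no replicate error. The sources used here give neither the doses nor how many animals went into a library. Both compounds are plasticisers, and the title names the toxicity of their joint exposure as the question. All 3 exposed libraries are set against the same control library, so a low control value raises all 3 differences together.

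The zebrafish ovary holds oocytes of all stages, each wrapped in granulosa and theca cells, with a covering epithelium, stroma, vessels and blood cells between them. Growing oocytes load the egg with messenger RNA and protein, among them special histones, egg-coat proteins and the machinery of replication and RNA processing that the embryo will use. Granulosa cells convert androgens to oestrogens with aromatase. In bulk RNA, more cells of a type and more RNA per cell cannot be told apart, which touches each result below.

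Oocyte genes marked the tissue in all libraries, with the egg-coat gene zpax4 at 963 FPKM in the control, 684 with DBP, 480 with DiBP and 658 with both compounds. The summed FPKM over all rows ran from 512635 in the combined library to 598063 in the DiBP library, with 534379 in the control and 572398 in the DBP library. How many reads lie behind them is unknown. Ratios among very low rows place the exposed libraries at 0.913 to 1.05 times the depth of the control. The members took 1.1% of all FPKM in the control, 2.7% with DBP, 3.27% with DiBP and 1.45% with both.

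At least 2-fold higher values than control were found at 3.61% of all measured loci with DBP, 5.33% with DiBP and 2.48% with both compounds. The combined library was at least 2-fold lower at 2.62%. Both single-exposure libraries were at least 2-fold higher at 210 loci (1.78%). Of these, 81 were also at least 2-fold higher in the combined library, 1 was at least 2-fold lower, and 128 lay between and form the set. The mirror set, lower in both single-exposure libraries and within 2-fold of control in the combined one, held 110 loci.

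**Figure D1:**
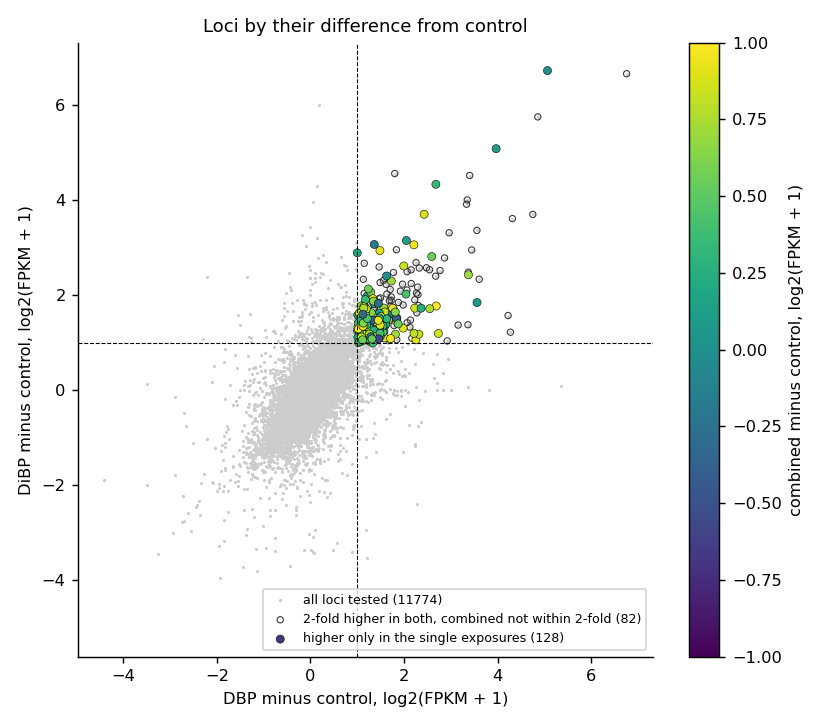
Each point is a locus, placed by its DBP minus control difference (x axis) and its DiBP minus control difference (y axis), both in log2(FPKM + 1); dashed lines mark 2-fold. The 128 filled points are the chosen loci, coloured by their combined minus control difference, and the 82 open circles are loci 2-fold higher in both single-exposure libraries whose combined value was not within 2-fold of control.

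The members span a wide range of levels. In the control 51 of them were below 1 FPKM and 7 were at 100 FPKM or more, while in the DBP and DiBP libraries 0 were below 1 FPKM and 19 and 20 were at 100 FPKM or more. Their median level was 1.48 FPKM in the control, 7.06 with DBP, 8.78 with DiBP and 2.49 with both compounds, against 10.1, 9.90, 9.03 and 9.33 FPKM over all measured loci. For 39 members the mean of the control and combined values was itself below 1 FPKM, so these passed the level filter through the libraries in which they are high. The log2(FPKM + 1) scale compresses such low values: 52 members were at least 2 times the control in the combined library by the plain ratio of FPKM, and 36 of the 52 had a control value below 1 FPKM.

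Of the 128 loci, 117 carried a gene symbol and 92 carried one other than a clone name. Values of 4 libraries are given below in the order control, DBP, DiBP and both compounds unless stated otherwise. The groups of genes by known function were drawn up after the values were seen and serve to order the account. They hold 72 members in 16 groups.

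Among oocyte genes, h1m (ENSDARG00000102892), the linker histone that packs chromatin in the oocyte and early embryo, was at 531, 1453, 1889 and 427 FPKM. The single-exposure libraries were far above the other pair, and the combined library was the lowest of the 4. Log2 differences from control were 1.45 with DBP, 1.83 with DiBP and -0.31 with both.

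The claudin gene cldnd (ENSDARG00000006580), a tight-junction protein family member and the most abundant gene of the set with a symbol of its own, was at 1111, 3301, 3699 and 1824 FPKM. Here the combined library lay between the control and the single exposures, with log2 differences of 1.57, 1.73 and 0.72. Another abundant claudin, cldng, was also higher in both single exposures, by less than 2-fold, at 588, 1033, 1068 and 517 FPKM, with the combined library lowest. h1m and cldnd are part of an oocyte list of 29 loci, of which 28 were measured. Over the 28 loci the median log2 difference was 0.08 with DBP, 0.08 with DiBP and -0.38 with both compounds, against medians of 0.00, -0.08 and -0.09 over all measured loci.

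Oocyte list loci other than h1m and cldnd summed to 11590, 11918, 11399 and 9042 FPKM, so the single-exposure libraries were close to the control and the combined library was lower. The zygote regulator ZAR1 was at 552, 770, 770 and 441 FPKM and the nucleoplasmin gene npm2b at 426, 538, 761 and 332 FPKM, in the order of h1m but within 2-fold of control. By contrast bmp15, an oocyte growth factor, was at 106, 94.9, 75.5 and 78.1 FPKM, highest in the control.

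Genes on a list of granulosa markers also belonged to the set. CYP19A1 (ENSDARG00000041348), the aromatase that makes oestrogen, was at 0.677, 3.65, 4.18 and 0.837 FPKM. The combined library stayed near the control, at 1.24 times its level, while DBP stood at 5.40 and DiBP at 6.18 times. The locus listed as mir202 (ENSDARG00000099807), named for a microRNA made in fish gonads, was at 1.58, 25.8, 13 and 3.26 FPKM. The mature microRNA was not analysed here. DBP gave the highest value there, and the combined library was at 2.06 times the control.

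CYP19A1 and mir202 were 2 of the 7 measured loci of the granulosa list (22 loci above 0), while 1.09% of all measured loci were members. CYP19A1 was below 1 FPKM in the control and combined libraries, so it counts as measured only through the single-exposure libraries. Among the low loci of that list, gsdf, a growth factor of fish gonads, was at 0.488, 1.28, 0.711 and 0.436 FPKM. The oestrogen enzyme hsd17b1 was at 0.393, 1.33, 0.968 and 0.519 FPKM. Both had their 2 highest values in the single-exposure libraries. foxl2l, on the same list, was at 3.66, 0.485, 0.542 and 1.35 FPKM. It was the measured locus of the list at least 2-fold lower in both single exposures, and which cells express it was not tested. Of the 20 granulosa loci outside the set, 16 were above the control in both single-exposure libraries by any amount, as were 32.6% of all 25259 loci above 0. The 20 loci summed to 84.1, 96.5, 110 and 79.1 FPKM, and in the control most of this came from loci not named here. The whole list summed to 86.4, 126, 127 and 83.2 FPKM, and 5 of its loci, among them FSHR, inha and wt1b, were listed at 0 in the control. The part of granulosa content in the values of CYP19A1 and mir202 was not tested.

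Of the transcription factors, foxf2b (ENSDARG00000070389), a forkhead factor of mesenchyme and vessel mural cells, had the largest difference of any member with a symbol of its own. It was at 0.0316, 15, 34.1 and 0.124 FPKM, near 0 in the control and combined libraries and far above 0 in both others. foxq1b (ENSDARG00000055395), another forkhead factor, was at 7.25, 28.7, 22.8 and 9.11 FPKM, with log2 differences of 1.85, 1.53 and 0.29. Of the 16 measured forkhead loci these were the 2 members, while 1.09% of all measured loci were members. foxf2b counts as measured only through the single-exposure libraries, so the 2 of 16 describes the selection. The other forkhead loci included FOXM1, a driver of mitosis, at 15, 9.36, 3.03 and 7.98 FPKM. The homeobox gene lhx1a was near 0 in the control, at 0.141, 2.66, 1.41 and 0.663 FPKM, so the combined library was within 2-fold of control only on the compressed scale.

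The contractile members of smooth muscle type, CNN2 and MYL9, were low in the control. CNN2 (ENSDARG00000035858), a calponin that binds actin, was at 0.320, 6.96, 8.31 and 0.946 FPKM. MYL9 (ENSDARG00000038123), a regulatory light chain of myosin whose symbol several rows carry, was at 0.313, 3.01, 2.46 and 0.519 FPKM. In both genes the single-exposure libraries were alike and the combined library was much nearer the control, although CNN2 was still at 2.96 times the control there by plain ratio. The classical markers acta2, a smooth muscle actin, and TAGLN, transgelin, were higher chiefly in the DBP library, at 0.833, 2.80, 1.15 and 0.893 FPKM and at 5.47, 33.5, 10.1 and 6.79 FPKM. By contrast tpm1 and TPM2, also on the smooth muscle list, were highest in the control. They were at 83.8, 62.5, 78.9 and 59.8 FPKM and at 8.81, 7.71, 3.64 and 7.61 FPKM.

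CNN2, MYL9 and foxf2b were 3 of the 7 measured loci of the smooth muscle list (18 loci above 0), while 1.09% of all measured loci were members. All 3 were below 1 FPKM in the control and combined libraries. They count as measured only through the libraries in which they are high, so the 3 of 7 describes the selection. The list summed to 101, 136, 142 and 79.6 FPKM, and to 101, 111, 97.5 and 78.0 FPKM without the 3 members. Of the 15 other loci, 11 were above the control in both single-exposure libraries by any amount (32.6% of all loci above 0), most of these loci averaging below 1 FPKM, and 0 were listed at 0 in the control. Vessel endothelium loci, 13 above 0, summed to 5.70, 4.88, 5.34 and 4.31 FPKM, with 4 of them listed at 0 in the control. Of these 13, 7 were above the control in both single-exposure libraries by any amount. The part of muscle cell content in the values of CNN2, MYL9 and foxf2b was not tested.

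Adhesion genes were among the clearest members. epcam (ENSDARG00000040534), an epithelial cell adhesion molecule, was at 86.8, 472, 1147 and 160 FPKM. The DiBP library exceeded the DBP library by 1.28 on the log2 scale, and the combined library was at 1.84 times the control. nectin4b (ENSDARG00000103148), a nectin of adherens junctions, was at 1.43, 9.0, 8.91 and 2.27 FPKM, nearly equal in the single exposures. gja11, a connexin of gap junctions, was at 1.19, 5.77, 5.22 and 1.70 FPKM, and krt18a.1, a keratin, at 0.722, 2.98, 2.88 and 1.51 FPKM.

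Other epithelial genes differed among themselves. krt8, a keratin that pairs with keratin 18, was at 3.77, 6.66, 8.0 and 3.53 FPKM, higher in both single exposures by less than 2-fold. E-cadherin, cdh1, was at 7.87, 8.67, 11.9 and 10.3 FPKM. The keratin krt15 was high with DBP alone, at 1.16, 7.29, 0.991 and 0.718 FPKM. The surface epithelium list, 20 loci above 0 and 10 measured, summed to 161, 583, 1253 and 256 FPKM. Without epcam and krt18a.1 it summed to 73.2, 108, 104 and 94.9 FPKM, so epcam made most of the list's difference. Of the 18 other loci, 11 were above the control in both single-exposure libraries by any amount (32.6% of all loci above 0). cldni and AGR2 were listed at 0 in the control. The part of epithelial content in the values of epcam and krt18a.1 was not tested.

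**Figure D2:**
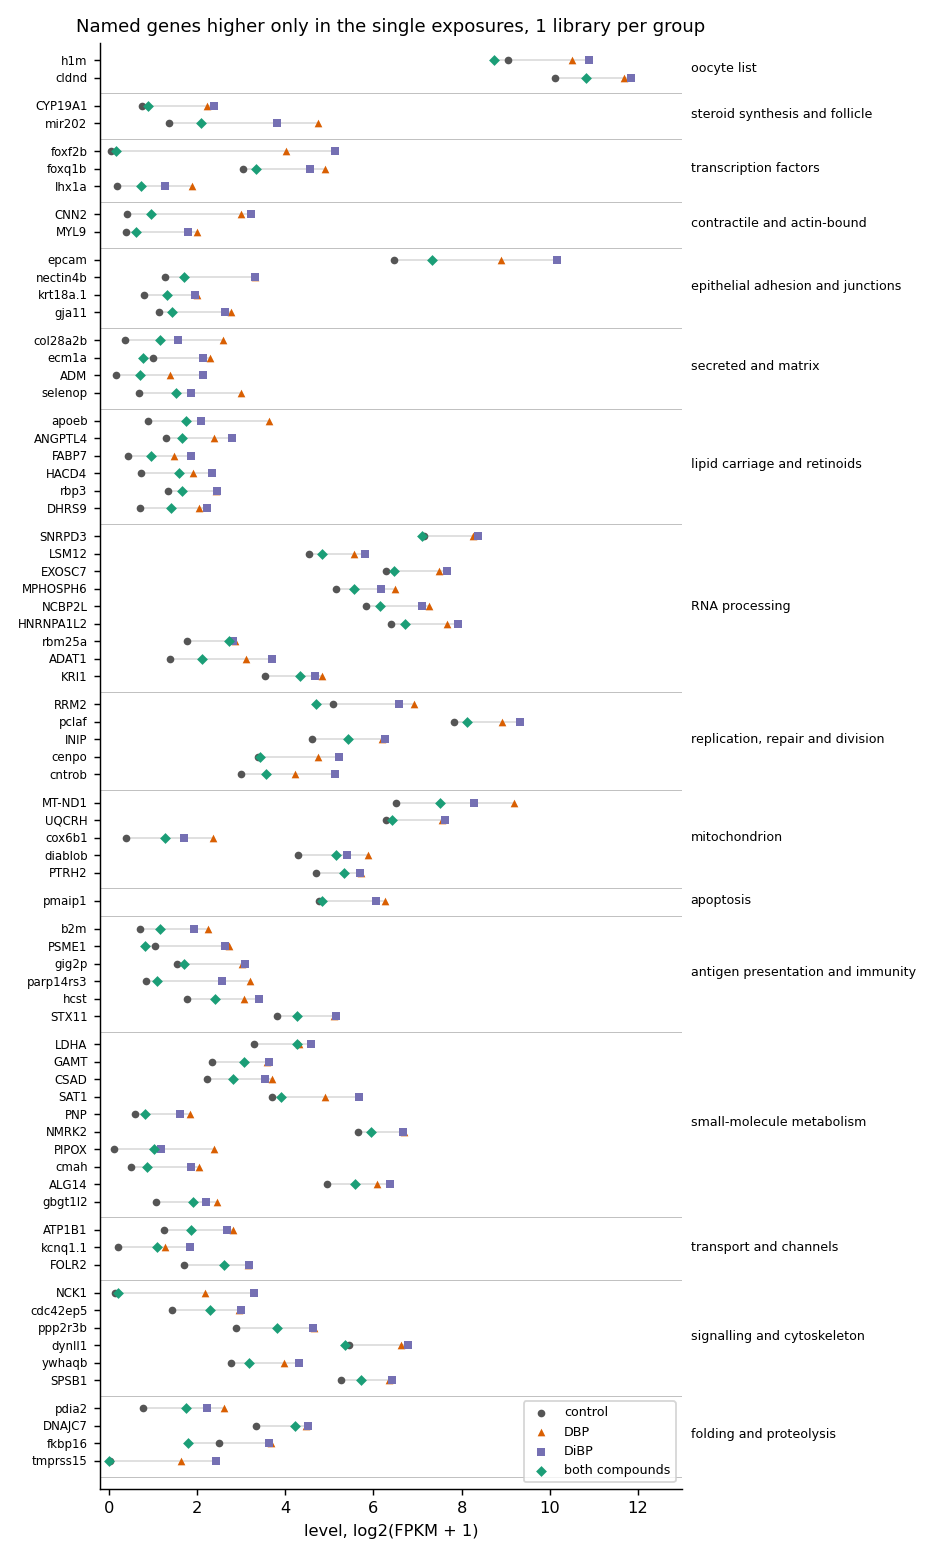
Each row is a gene of the set, grouped by known function, with its level in log2(FPKM + 1) in the control (circle), DBP (triangle), DiBP (square) and combined (diamond) libraries, 1 library each. In every row both single-exposure points lie to the right of the combined diamond, which the selection fixes. The diamond sits close to the control circle at CYP19A1, foxf2b, UQCRH and pmaip1 and close to the single exposures at rbm25a and LDHA.

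RNA-processing genes formed a group of 9 members with control levels from 1.62 to 141 FPKM. EXOSC7 (ENSDARG00000100060), a core subunit of the RNA exosome that degrades and trims RNA, was at 77.2, 179, 203 and 87.4 FPKM. MPHOSPH6, an exosome-associated protein, was at 34.7, 89.2, 70.5 and 46.2 FPKM. Among the 11 other measured genes of the exosome, DIS3, its catalytic subunit, was at 1.33, 6.23, 8.52 and 4.44 FPKM and so was more than 2-fold higher in all 3 exposed libraries. The other 10 were within 2-fold of control in both single-exposure libraries, such as EXOSC6 at 228, 267, 293 and 206 FPKM. Over all measured loci 3.61% were at least 2-fold higher with DBP and 5.33% with DiBP. The median of the 11 was 0.36 with DBP, 0.21 with DiBP and -0.15 with both.

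SNRPD3 (ENSDARG00000013800), a protein of the Sm ring that forms the core of spliceosomal particles, was at 141, 305, 331 and 137 FPKM. A further row of the same symbol was at 98.4, 165, 189 and 104 FPKM, in the same order but inside 2-fold, and reads could be split between the copies. Of the other ring genes, SNRPF was close to membership, at 81.1, 174, 149 and 99.9 FPKM, whereas SNRPB went the other way, at 2137, 1460, 1433 and 1427 FPKM. The ring held 1 member in 8 measured loci (1.09% of all measured loci were members). It was listed because SNRPD3 was a member, so the 1 in 8 describes that choice. Medians of the remaining 7 were 0.35, 0.54 and -0.14.

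Further members of this group were abundant. NCBP2L, which resembles the nuclear cap-binding subunit, was at 55.7, 152, 136 and 70.4 FPKM. HNRNPA1L2, an RNA-binding hnRNP protein, was at 83.8, 202, 241 and 103 FPKM, and LSM12, an Sm-like protein, at 22.3, 45.8, 55.1 and 27.6 FPKM. In these 3 genes the combined library was within 1.5-fold of control. ADAT1, which edits transfer RNA, was at 1.62, 7.69, 12 and 3.29 FPKM. The splicing regulator rbm25a was at 2.40, 6.30, 5.98 and 5.57 FPKM, so that all 3 exposed libraries were alike and the gene belongs to the set by the narrow margin of a combined difference of 0.95.

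Genes of DNA replication, repair and division gave 5 members. A row of RRM2 (ENSDARG00000078069), the small subunit of the reductase that makes deoxyribonucleotides, was at 32.8, 120, 95.1 and 25.0 FPKM. The other RRM2 row, more abundant in the control, was at 212, 236, 129 and 187 FPKM and had no such pattern, nor had the large subunit gene RRM1, at 283, 214, 152 and 189 FPKM. The 2 RRM2 rows are copies between which reads could be split. pclaf, which binds the replication clamp PCNA, was at 227, 483, 642 and 277 FPKM, while PCNA itself was at 456, 396, 286 and 403 FPKM, lowest in the DiBP library.

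INIP, a subunit of a complex that binds single-stranded DNA at breaks, was at 23.5, 72.8, 76.1 and 42.1 FPKM. INTS3, from the same complex, was at 33.1, 32.6, 22.7 and 27.5 FPKM. The kinetochore gene cenpo was at 9.42, 25.6, 36.1 and 9.79 FPKM, with control and combined values nearly equal. cntrob, a centriole protein, was at 6.92, 17.7, 33.8 and 10.8 FPKM, higher with DiBP than with DBP. On the cell cycle list, 0 of 44 measured loci were members, with 1 locus at least 2-fold higher with DBP and 1 with DiBP. All measured loci gave 1.09%, 3.61% and 5.33%.

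Mitochondrial members were MT-ND1, UQCRH, cox6b1, diablob and PTRH2. MT-ND1 (ENSDARG00000063895), a complex I subunit encoded in the mitochondrial genome, was at 89.8, 584, 310 and 180 FPKM. Its combined value was 2.01 times the control and its log2 difference there lay just inside the limit, so its membership rests on a very small margin. MT-ND5 and MT-ND6, with combined differences of 1.14 and 1.15, fell outside, although they had the same order of libraries, at 35.0, 173, 111 and 78.4 FPKM and at 77.1, 340, 196 and 172 FPKM. Among the 9 other measured mitochondrially encoded loci the median difference was 1.54 with DBP and 0.39 with DiBP.

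The nuclear-encoded respiratory subunits in the set were single genes of their complexes. UQCRH (ENSDARG00000059128), the hinge protein of complex III, was at 76.7, 186, 196 and 84.6 FPKM. None of the 9 other measured loci of complex III was at least 2-fold higher with DiBP, and 1 was with DBP (MT-CYB, at 839, 1717, 771 and 641 FPKM). UQCRC1, a core subunit, was at 66.9, 62.7, 43.7 and 58.8 FPKM, lowest with DiBP. cox6b1, of cytochrome c oxidase, was low, at 0.303, 4.15, 2.23 and 1.42 FPKM, while cox6b2 was at 106, 119, 99.3 and 98.8 FPKM. For the 14 other oxidase loci, medians were 0.34, 0.16 and -0.09, with 0 loci at least 2-fold higher in either single-exposure library. Over all measured loci 3.61% were at least 2-fold higher with DBP and 5.33% with DiBP. Counts this small therefore do not set either complex apart.

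Apoptosis genes held pmaip1 and diablob. pmaip1 (ENSDARG00000089307), the Noxa protein that blocks survival factors of the Bcl-2 family, was at 26.4, 75.3, 66.0 and 27.3 FPKM, with control and combined values almost equal. diablob, a mitochondrial protein that frees caspases from their inhibitors, was at 18.6, 57.5, 41.0 and 34.7 FPKM, so the combined library was intermediate. The related diabloa stayed level, at 5.99, 7.36, 6.56 and 5.62 FPKM. On the list of apoptosis and the p53 response, 2 of 33 measured loci were members. At least 2-fold higher were 3 with DBP and 2 with DiBP, and at least 2-fold lower 0 and 2. Over all measured loci 1.09% were members, 3.61% and 5.33% were higher, and 2.46% and 6.23% lower. The list's medians were 0.17, 0.11 and -0.11.

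**Figure D3:**
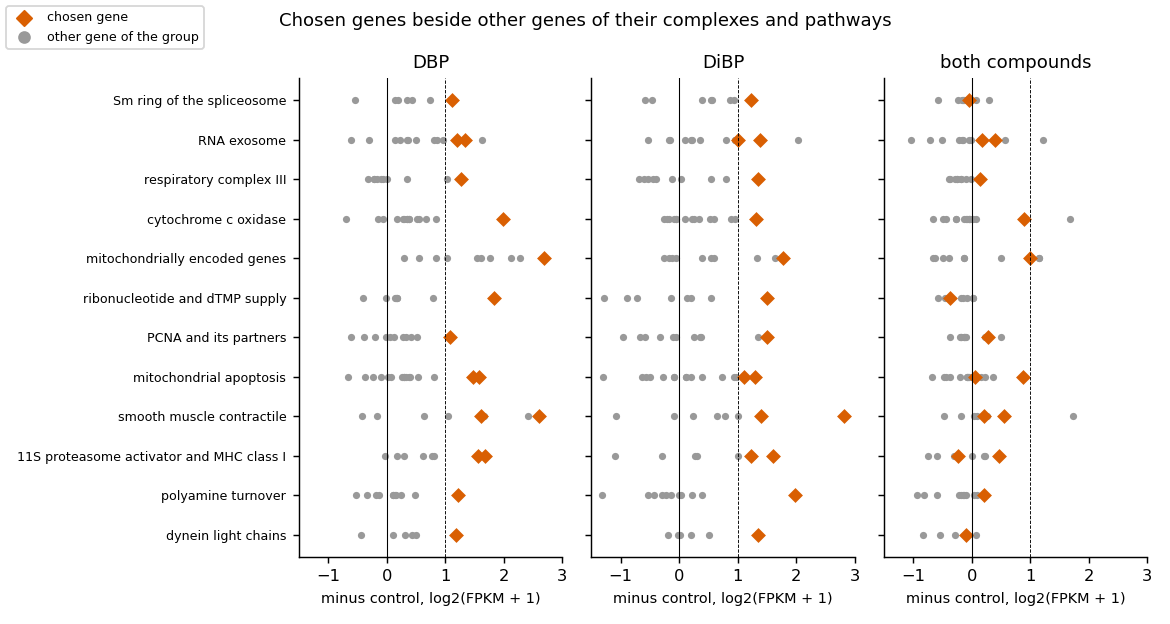
Orange diamonds are genes of the set and grey dots are other measured genes of the same complex or pathway; the x axes give the difference from control in log2(FPKM + 1) for the DBP, DiBP and combined libraries, and dashed lines mark 2-fold. In complex III and among PCNA partners the grey dots lie mostly within 2-fold of control in both single exposures, while mitochondrially encoded genes spread to the right with DBP.

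Immune genes in the set were low to moderate. PSME1 (ENSDARG00000002165), a subunit of the proteasome activator that aids antigen processing, was at 1.06, 5.56, 5.22 and 0.752 FPKM, and b2m, the light chain of MHC class I, at 0.619, 3.74, 2.79 and 1.23 FPKM. PSME2, the other subunit of that activator, was outside the set, with a DBP difference of 0.61, at 1.06, 2.15, 3.14 and 1.07 FPKM, and the immunoproteasome gene PSMB9 was at 2.35, 4.76, 7.05 and 1.22 FPKM. All 4 genes were higher in both single-exposure libraries than in the other pair. TAP1, the peptide transporter of the same route, was at 3.22, 4.15, 0.963 and 3.89 FPKM, lowest with DiBP.

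gig2p, of a fish gene family induced by virus, was at 1.93, 7.13, 7.45 and 2.24 FPKM, and parp14rs3, named after an ADP-ribosyltransferase, at 0.777, 8.16, 4.90 and 1.11 FPKM. STX11, a SNARE of cytotoxic granule release, was at 13.1, 33.4, 34.6 and 18.2 FPKM, and hcst, an adaptor of activating receptors on lymphocytes, at 2.41, 7.41, 9.60 and 4.29 FPKM. In gig2p the combined library was close to the control, and in hcst it was between. On the list of innate immunity, 1 of 19 measured loci was a member (b2m), 3 were at least 2-fold higher with DBP and 5 with DiBP. The shares over all measured loci were 1.09%, 3.61% and 5.33%. The leukocyte markers, 29 loci above 0, held 0 members among 7 measured and summed to 189, 250, 342 and 170 FPKM. Of the 29, 19 were above the control in both single-exposure libraries (32.6% of all loci above 0), and 5 were listed at 0 in the control, among them c1qa, c1qb and csf1ra. Their part in the values of immune genes was not tested.

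Lipid and retinoid genes made 6 members, with control levels from 0.350 to 1.52 FPKM. ANGPTL4, a secreted inhibitor of lipoprotein lipase and a known PPAR target, was at 1.44, 4.19, 5.90 and 2.16 FPKM. The apolipoprotein gene apoeb was at 0.851, 11.3, 3.25 and 2.36 FPKM, highest with DBP, with DiBP and the combined library close to each other. FABP7 (ENSDARG00000007697), a fatty acid carrier whose symbol several rows carry, was at 0.350, 1.78, 2.63 and 0.924 FPKM. HACD4, which serves the lengthening of fatty acids, was at 0.665, 2.75, 4.08 and 1.99 FPKM, while HACD2 was at 10.6, 11.2, 7.48 and 9.02 FPKM.

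Metabolites of phthalates are known to activate PPAR receptors, and receptor activity was not tested here. The list of PPAR targets, lipid carriers and fatty acid metabolism held 3 members in 32 measured loci (9.38%, against 1.09% of all measured loci). Of measured loci below 1 FPKM in the control 8.73% were members, against 0.757% from 1 to 10 FPKM and 0.626% at 10 FPKM or more. Loci below 1 FPKM in the control count as measured only where another library lifts their mean. The 8.73% is therefore partly fixed by the filter. Of the 3, FABP7 and apoeb were below 1 FPKM in the control. FABP7 was so in the combined library too, and counts as measured only through the single exposures. At least 2-fold higher values were seen at 4 of the 32 with DBP, 4 with DiBP and 1 with both. All measured loci gave 3.61%, 5.33% and 2.48%. At least 2-fold lower values were seen at 1, 2 and 1 of the 32, against 2.46%, 6.23% and 2.62% of all measured loci. fabp4a, on the same list, was outside the set because the combined library was high as well, at 1.55, 25.3, 5.65 and 8.79 FPKM. The list's medians were -0.10, -0.29 and -0.12. Steroid and cholesterol synthesis held 1 member in 34, CYP19A1, with medians of -0.07, -0.14 and -0.17.

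Small-molecule metabolism gave 10 members, and in all 10 the combined library was above the control. The same held at 85.9% of the whole set and 38.2% of all measured loci. A locus of SAT1 shared by 2 identifiers, the rate-limiting enzyme of polyamine breakdown, was at 12, 29.0, 50.3 and 14.0 FPKM. Another SAT1 row was at 11.4, 16.4, 9.16 and 10.2 FPKM, without this pattern, and reads could be split between the copies. The polyamine synthesis genes ODC1 and SRM were within 2-fold of control, at 35.2, 32.1, 26 and 30.3 FPKM and at 22.4, 24.8, 22.3 and 19.5 FPKM. GAMT, of creatine synthesis, was at 4.01, 11, 11.4 and 7.37 FPKM, and CSAD, of taurine synthesis, at 3.70, 11.9, 10.7 and 6.05 FPKM, each with the combined library between control and single exposures. LDHA, which reduces pyruvate to lactate, was at 8.73, 18.8, 22.9 and 18.3 FPKM, so the combined library matched DBP, while LDHB, the main form here, was at 884, 623, 604 and 746 FPKM, highest in the control.

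Signalling and cytoskeletal members included dynll1, a dynein light chain, at 42.4, 97.5, 110 and 39.6 FPKM, and ppp2r3b, a regulatory subunit of protein phosphatase 2A, at 6.41, 24.0, 23.6 and 13.1 FPKM. SPSB1, an adaptor of ubiquitin ligases, was at 37.3, 80.6, 84.6 and 51.7 FPKM. For dynll1 the control and combined libraries were within 1.5-fold of each other, and for ppp2r3b the combined library was intermediate. ppdpfb, named for pancreatic progenitor differentiation in zebrafish, was at 142, 504, 324 and 233 FPKM. NCK1, an adaptor of tyrosine kinase signals whose symbol several rows carry, was at 0.0987, 3.55, 8.80 and 0.156 FPKM. tmprss15, the intestinal protease enteropeptidase, was at 0.0103, 2.12 and 4.36 FPKM and listed at 0 in the combined library. Of the gut and pancreas markers, 14 loci above 0 summed to 18.6, 13.5, 25.4 and 18.9 FPKM, with 0 members among 4 measured.

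Outside these groups stood 56 members, 27 of them below 1 FPKM in the control. The combined library was above the control at 46 of the 56, and DiBP was above DBP at 35. In the whole set the shares were 85.9% and 57.0%, and over all measured loci 38.2% and 39.2%. HDAC11, a histone deacetylase, was at 3.94, 10.9, 9.36 and 6.39 FPKM, and tex30 at 31.2, 64.3, 84.9 and 39.8 FPKM. anxa3b, an annexin that binds membranes, was at 1.12, 5.95, 3.52 and 3.16 FPKM, with the combined library close to DiBP. Of the channel and uptake genes, FOLR2, a folate receptor, was at 2.27, 7.94, 8.09 and 5.12 FPKM.

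Lists with 0 members included Notch signalling (14 measured loci), TGF-beta and BMP signalling (26), Wnt signalling (26), immediate-early genes (32), heat shock and folding (44), antioxidant and xenobiotic response (33), and ribosomal proteins (76). In all, 16 of 37 lists held a member, and 18 of the 128 members stood on a list. Theca, stroma, red blood cell, thrombocyte, liver and skeletal muscle markers held 0 members, with 7, 3, 3, 1, 0 and 4 measured loci. Members made up 1.09% of all measured loci, so 0 members on lists of these sizes does not set a list apart. Lists without members also held many loci above the control in both single-exposure libraries by any amount. These were 11 of 15 theca, 15 of 26 stroma, 7 of 13 red blood cell and 4 of 10 thrombocyte loci. Liver gave 3 of 17, gut and pancreas 6 of 14 and skeletal muscle 7 of 16, against 32.6% of all loci above 0.

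**Figure D4:**
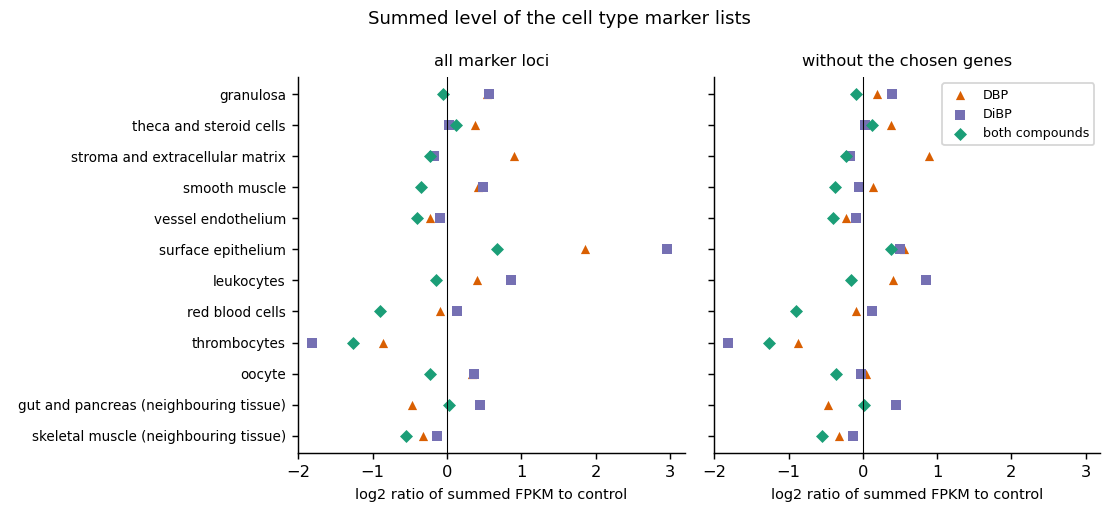
For each cell type marker list with a control sum above 5 FPKM, points give the log2 ratio of its summed FPKM to that of the control in the DBP (triangle), DiBP (square) and combined (diamond) libraries, over all its loci (left) and without the genes of the set (right). The large ratios of the surface epithelium list on the left shrink on the right, where epcam is left out. Granulosa and surface epithelium sums stay above control in both single exposures on the right. The leukocyte list holds 0 members, so its points are the same in both panels.

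Several large differences were at loci without a functional name. si:dkey-4c23.8 (ENSDARG00000094960), with the largest of the set, was at 32.5 FPKM with DBP and 105 with DiBP and listed at 0 in the control and combined libraries. si:ch211-45l19.2 was at 0.119, 6.18, 21.7 and 0.420 FPKM, and si:dkey-22p6.2 at 0.882, 21.2, 5.79 and 1.01 FPKM. In each the control and combined libraries were both low, and DiBP was the higher single exposure in the first 2 and DBP in the last. A locus shared by 4 clone-named genes, of which si:dkey-241l7.3 is the first, was the most abundant member, at 1978, 3989, 5936 and 2062 FPKM. Absence cannot be read from a value of 0 in such tables.

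Within the window that the rule allows, the combined library could lie above or below the control, although the rule used its value. It was above the control at 110 of 128 members (85.9%), against 38.2% of all measured loci, and the median difference was 0.54 against -0.09. Each difference is taken from the same control library, so a control value that is low by error raises the combined difference as well. Its part in the 85.9% was not tested. By control level, the combined library was above the control at 44 of 51 members below 1 FPKM. It was so at 34 of 40 from 1 to 10 FPKM and 32 of 37 at 10 FPKM or more. All measured loci were not chosen by the rule and are not limited to the window. The 85.9% therefore describes chosen loci, and the 38.2% is not a matched comparison. At or below the control were 18 members, among them h1m, RRM2, PSME1, SNRPD3, dynll1, ecm1a and fkbp16. Of these, si:dkey-4c23.8 was equal to the control, listed at 0 in both libraries. fkbp16 was the lowest, at 4.64, 11.8, 11.3 and 2.44 FPKM. The combined library was nearer the control than to either single exposure at 83 members and nearer a single exposure at 45, on the log2(FPKM + 1) scale. The median of the combined difference was 39.4% of the smaller single-exposure difference.

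**Figure D5:**
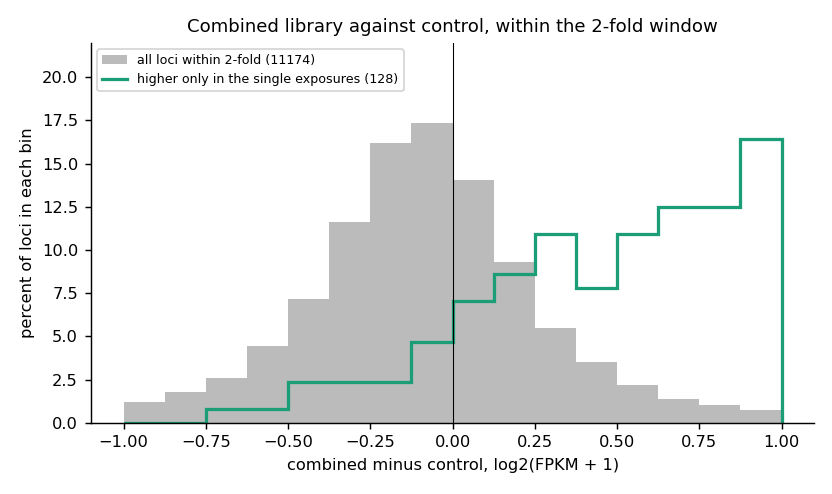
The combined minus control difference in log2(FPKM + 1) (x axis) is shown as the percent of loci per bin (y axis) for the 11174 measured loci within 2-fold of control (grey) and for the 128 chosen loci (green line). The grey distribution peaks just below 0, and the green line is highest in the bin at the upper limit of the window.

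Set directly against the single exposures, which leaves out the control, the combined library was at least 2-fold lower than DBP at 59 members (46.1%) and than DiBP at 62 (48.4%). Over all measured loci the shares were 3.75% and 4.57%. Both held at 42 members. The rule keeps the combined value below each single exposure, so that these numbers describe size only. A narrower window, with the combined library within 1.5-fold of control, left 72 loci, among them h1m, foxf2b, CYP19A1, pmaip1, UQCRH and EXOSC7.

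The isomers DBP and DiBP differ in the branching of their butyl chains, and both exposures lasted 30 days. The rule required a high value in both libraries, so likeness between them at the members is partly built in. The numbers here describe chosen loci. The single-exposure libraries were within 1.5-fold of each other at 95 of 128 members, a share below the 82.8% of all measured loci. DiBP was the higher at 73 members (57.0%, against 39.2% of all measured loci), and by at least 2-fold at 8 (6.25%, against 2.55% of all measured loci). DBP was at least 2-fold higher at 5 (3.91%, against 3.51%). No test or interval can be given with 1 library each, and whether doses matched is not known.

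Members at least 2-fold higher with DiBP than with DBP included epcam and foxf2b and several clone-named loci. The widest gap was at si:dkey-163f12.6, listed by RefSeq as fhad1, at 1.68, 4.37, 19 and 2.03 FPKM. On the other side stood apoeb, si:dkey-22p6.2, and 3 low genes. selenop, the plasma carrier of selenium, was at 0.604, 6.99, 2.64 and 1.88 FPKM. PIPOX, a peroxisomal oxidase, was at 0.0874, 4.19, 1.27 and 1.03 FPKM, and the collagen gene col28a2b at 0.292, 4.99, 1.97 and 1.25 FPKM. In these 3 the combined library was much nearer DiBP than DBP.

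Position in the genome was examined by gene order in the RefSeq annotation of GRCz12tu, a later assembly than that of the files, in which 91 members could be placed. Among measured loci, 6 pairs of members lay next to each other. foxq1b and foxf2b are direct neighbours, as are ANGPTL4 and CNN2, and zgc:194252 and HACD4. Among the others, UQCRH lay beside col28a2b, and gbgt1l2 beside the related gbgt1l4. zgc:194252 was at 0.154, 1.82, 3.84 and 0.726 FPKM, in the order of HACD4. Whether neighbouring rows share reads was not tested, and strand use is not stated.

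Of the 182 positions next to the 91 placed members, 13 (7.14%) were at least 2-fold higher with DBP and 18 (9.89%) with DiBP. All measured loci gave 3.61% and 5.33%. A locus beside 2 members, such as MOCS2, is counted for each of them. The members themselves make up 12 of the 182, and 1.09% of all measured loci. Without these 12, which are higher by the rule, 1 of 170 (0.588%) was higher with DBP and 6 (3.53%) with DiBP. The shares of all measured loci still include the members, so they are not a matched comparison for the 170. EXOC2, on the other side of foxq1b, was at 21.2, 14.7, 9.83 and 15.6 FPKM, and GMDS, beside foxf2b, at 6.75, 9.18, 5.69 and 6.29 FPKM. RPS28, a ribosomal protein gene beside ANGPTL4, was at 129, 241, 316 and 126 FPKM. Both single exposures were above the other pair, as at the members, but its DBP difference was 0.89. That order is not particular to RPS28, since the 76 measured ribosomal protein loci had median differences of 0.29, 0.43 and -0.25.

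Rows of merged loci, which carry no gene name, were not part of the rule. Of 2085 such loci that averaged 1 FPKM or more and had no twin among the named rows, 71 (3.41%) met the same 3 conditions, and 50 met the mirror conditions.

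The limits of the rule run through close values. Just inside the DBP limit was LSM12 with a difference of 1.0, and just outside were RBM28 and STYX with 0.98. Just inside the DiBP limit were MPHOSPH6 and PTRH2, both with 1.0, and just outside g0s2 and syce2, with the latter at 0.99. At the upper limit of the combined library, LDHA with 0.99 was inside and trim35-27 with 1.0 outside. The lower limit is far from any member, since fkbp16 had -0.71 and the sole locus beyond was lectin, at 131, 362, 472 and 46.3 FPKM. Membership of genes near a limit, such as LSM12, LDHA and MT-ND1, therefore rests on small differences.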

How the data were processed

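The authors deposited 1 table per library, with values that no header or label assigns a unit. They were read as FPKM from the values themselves, which hold decimals and sum to a different total in each library, and the authors may have made them in another way. HISAT2, HTSeq 0.6.1 and build GRCz10 appear in the submitters' processing notes, without order or settings. Per the file headers, the DiBP and combined columns are named otherwise than their sample titles. Which library is which was therefore taken from the sample that the repository lists each table under, and the whole rule rests on it.

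Of 35066 Ensembl rows, 26996 had a symbol in the identifier table, printed as given there. The 27068 rows above 0 in a library were collapsed where all 4 values were identical, leaving 25259 loci, of which 11774 averaged 1 FPKM or more. Differences are of log2(FPKM + 1), with no further scaling, and at least 2-fold means at least 1 on that scale. With 1 library per group there is no test, and counting error could not be estimated. The members, marker lists and gene lists were chosen with earlier results of these data known. Genes of the same complexes, and the function groups, were listed once the members were known. A rule set which genes to name among symbols carried by 1 row: the 15 largest of the smaller single-exposure differences, the 12 highest means, the 6 combined values nearest control, the 5 widest differences between isomers each way, the 4 loci on each side of each limit, list members and neighbours. Picked outside it, after values were seen, were NCK1, RRM2, SNRPD3, SAT1, STX11, GAMT, CSAD, cox6b1, gig2p, hcst, FOLR2, HDAC11, anxa3b, lhx1a, the clone-named loci, and genes outside the set that are not on the rule's lists. Some loci are not reported here. No coordinates are printed, since the reference table is of another assembly. The code was tested on simulated data. Python 3.11.15, numpy 2.4.6, pandas 2.3.3 and matplotlib 3.10.9 were used.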

Additional observations from a re-analysis of the deposited data

How the results depend on the processing

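No paired analysis was possible because each group has 1 library. Of 10 alternatives, the set of 128 loci stayed within 1.5 times its size with no filter, without collapsing and under all 3 scalings (90 with total scaling, of which 90 are in the set). It held 40 with a pseudocount of 5, 65 with a filter at 5 FPKM, 72 with the combined library within 1.5-fold of control and 21 with single exposures at least 3-fold higher. With a pseudocount of 0.1 it held 187, and just 82 of the 128 were kept. Members at least 2-fold lower in the combined library than in DBP (59) numbered 100 with a pseudocount of 0.1, 22 with 5, 29 at 5 FPKM and 19 at 3-fold. Against DiBP (62) they numbered 112, 23, 37 and 16, and 40 with total scaling. Members at least 2-fold apart between the isomers (13) numbered 29, 3, 7 and 6, and 7 with the 1.5-fold window. Total scaling moved the DiBP median over all loci from -0.08 to -0.22. DiBP exceeded DBP at 73 of 128 members, 48 of 90 with total scaling. The combined library was above control at 76.4% to 86.0% of the members chosen under each alternative. Each alternative chose its members against the same control library. Under both pseudocounts and all 3 scalings 27 members were kept, among them foxf2b, mir202, epcam, nectin4b, INIP, cldnd, foxq1b, RRM2, h1m, cenpo, pmaip1, UQCRH, EXOSC7, dynll1 and SNRPD3. CYP19A1, CNN2 and MT-ND1 were not. Depth limits genes below 1 FPKM most, where a few fragments decide the value.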
